A study of Saccharomyces cerevisiae with 48 samples.

Results

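The cytosolic small ribosomal subunit of budding yeast, Saccharomyces cerevisiae, is built from proteins encoded by 56 RPS genes, and this report follows their mRNA levels through changes of oxygen, alcohol and strain. The genes were taken by their systematic identifiers, from RPS0A to RPS31, and all 56 were found among the 6713 genes of the table. They form 24 pairs of duplicated genes, called paralogs A and B, and 8 single genes, among them RPS2, RPS12, RPS13 and RPS31. In the reference annotation 36 of them have an intron within the coding sequence and 20 have none.

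RNA was sequenced from 3 wild strains. WA is strain NCY3290, a West African isolate from bili wine, PAP is Y7568, a mosaic isolate from papaya, and IL01 is a mosaic isolate from soil. Cells grew in log phase in the rich medium YPD, in YPD with 0.8% 1-butanol (BUT), with 1% isobutanol (ISO) or with ethanol (ETH), the last at 4% in air and at 3% without oxygen. Each of the 24 combinations of strain, medium and oxygen had 2 replicate libraries, 48 in all. The study's methods state that the duplicates were collected on different days. Aerobic cultures shook in flasks and anaerobic ones grew in a chamber, and any difference in how they were collected cannot be told apart from oxygen. Each strain is 1 isolate, so that a strain difference describes that isolate and not its lineage.

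The small subunit, or 40S particle, reads the mRNA: it finds the start codon, holds the message in a channel and checks each codon against the tRNA, while the large subunit joins the amino acids. Yeast spends much of its transcription on ribosomal protein genes. The activator Rap1 and its partners Fhl1, Ifh1 and Sfp1 drive most of them together, under the TOR and protein kinase A signalling pathways, so that their mRNAs rise in fast growth and fall under stress. The duplicated genes date largely from an ancient duplication of the whole yeast genome, and the proteins of a pair are identical or nearly so.

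Levels are given in RPKM, the reads of a gene per kilobase of its length, scaled to the size of the library, and differences as log2 ratios of RPKM + 1 from the limma model, with the standard error (SE). A gene was called changed where its Benjamini-Hochberg adjusted p over all genes of that comparison was below 1%. Counts of members at an unadjusted p below 0.05 are given as a description, without the share of all genes that passed it. The members moved together, so these are not counts of independent genes. Depth was high for these genes: a library held 7480286 to 13938540 reads, and a member had 317 to 77165 reads per library with a median of 7492. Reads in the 6012 genes whose whole reads could be recovered, called reads in genes below, made up 55.6% to 84.4% of the library.

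The libraries labelled WA in anaerobic ethanol went against their label. Of 6 genes that stayed under 1 RPKM in every other WA library and above 2 RPKM in every IL01 library, 5 were above 2 RPKM in both of them and 0 were under 1 in both. Of 15 genes with the opposite pattern, absent in the other IL01 libraries and present in WA, 7 were above 2 RPKM in both and 8 were under 1 in both, and of 11 genes silent in the other WA libraries and present in PAP 6 were above 2 RPKM in both and 5 under 1. Of 12 genes silent in the other IL01 libraries and present in PAP, 8 were above 2 RPKM in both and 4 under 1 in both. None of these patterns was thus met in full, and whether these libraries mix strains was not tested. Over all genes they correlated best with the IL01 libraries in anaerobic ethanol (mean r = 0.963), with PAP in anaerobic ethanol at 0.954. Among the anaerobic YPD libraries the mean r was 0.955 for IL01, 0.935 for WA and 0.931 for PAP. They are therefore kept apart in what follows, and every count over the anaerobic libraries is without them unless they are named.

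The small subunit genes took up a large part of all summed RPKM in air and much less without oxygen. Over the 24 aerobic libraries their share of the RPKM sum was 14.9% at the lowest, 19.3% at the median and 22.3% at the highest. Over 22 anaerobic libraries the same figures were 3.97%, 10.6% and 15.6%, so that the 2 sets overlapped only where the highest anaerobic libraries, of PAP in ethanol (15.6% and 15.4%), met the lowest aerobic ones, of WA. In air the lowest shares belonged to WA in butanol (14.9% and 16.6%) and the highest to IL01 in YPD (21.0% and 22.3%). Without oxygen the lowest belonged to IL01 in isobutanol, where the replicates also differed most (3.97% and 9.93%), and IL01 in butanol was split in the same way (6.0% and 11.3%). The libraries labelled WA in anaerobic ethanol gave 14.2% and 14.4%. RPKM is relative to the library, so that a change in the amount of mRNA per cell is not seen in it. The RPS sum kept a nearly fixed proportion to the sum over the 81 genes of the large subunit, between 0.73 and 0.84 in all 48 libraries.

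**Figure D1:**
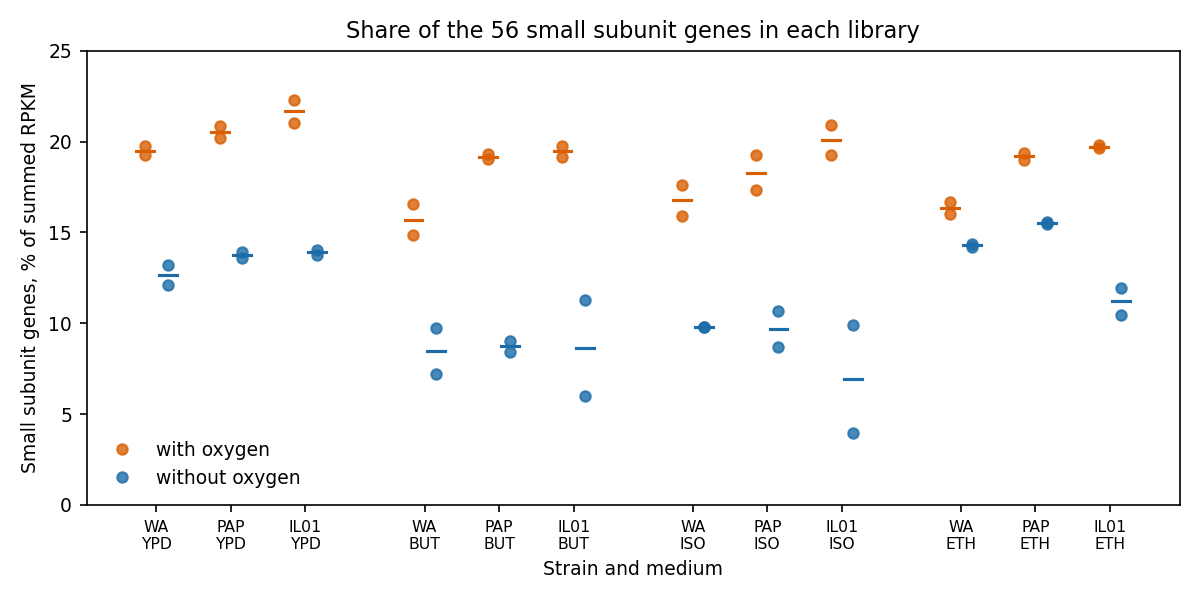
Share of the summed RPKM taken by the 56 small subunit genes (vertical axis, percent) in each of the 48 libraries, by strain, medium and oxygen (points are single libraries, bars the mean of 2). Aerobic libraries lie between 14.9% and 22.3%, the anaerobic ones of the same strain and medium lie lower, and the 2 IL01 isobutanol libraries without oxygen are far apart, at 3.97% and 9.93%.

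Within the subunit the members differed by more than an order of magnitude in level. By mean RPKM over 46 libraries the highest included RPS31 (YLR167W, 5429), which encodes ubiquitin fused to its ribosomal protein, RPS2 (YGL123W, 4826) and RPS12 (YOR369C, 4232), single genes, and RPS26A (YGL189C, 3932), whose protein lies beside the mRNA where it leaves the channel. The 4 lowest were each 1 copy of a pair: RPS9A (YPL081W, 223), RPS6A (YPL090C, 349), RPS14B (YJL191W, 539) and RPS22B (YLR367W, 630). The 56 genes nevertheless moved together. The correlation of each member with the median of the members over the 46 libraries, on the log2 scale, had a median r of 0.98 and ran from 0.59 to 1.00; the lowest values belonged to RPS22B (0.59) and RPS9A (0.64), with RPS14B at 0.84. These correlations share libraries and depth and are given as a description.

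Since 48 of the members are paralogs, the aligned reads decide what the table can tell about each copy. The coding sequences of the pairs were 84.3% to 99.2% identical (median 92.7%), and in 20 of 24 pairs no stretch of 100 bases, the length of a read, was the same in both copies. The exceptions included RPS6, with 53.4% of its 100-base windows shared, RPS24 with 17.2% and RPS4 with 13.2%. Reads could be exchanged between copies most easily in these pairs, and the levels of RPS6A and RPS6B in particular are uncertain for that reason. The reads were aligned to the laboratory strain S288c, and the part that strain-specific bases play in the strain differences below was not tested. The following stretches of build R64 show what tells the copies apart in the pairs whose balance moved most with oxygen, RPS26 and RPS22, and in RPS9, the most unequal pair; capitals mark the bases that differ between the copies, and each stretch is written 5′ to 3′ on the coding strand.
RPS26A (chrVII:148251-148280, minus strand, coding exon): CaacagAgaAaacaaGgtttcCccTgcTgA
RPS26B (chrV:424260-424289, plus strand, coding exon): TaacagGgaTaacaaAgtttcTccAgcAgC
RPS22A (chrX:75213-75242, minus strand, coding exon): ggtaaGcgtcaAgttTtaAtCagaccAtcC
RPS22B (chrXII:856502-856531, plus strand, coding exon): ggtaaAcgtcaGgttCtaTtGagaccTtcT
RPS9A (chrXVI:405679-405708, plus strand, coding exon): atTagGagaCtAgttagagtCggtgtTttA
RPS9B (chrII:605149-605178, plus strand, coding exon): atCagAagaTtGgttagagtTggtgtCttG
In the 30 bases shown there were 8 differences in RPS26 and 7 in each of the other pairs.

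The first comparison asked how the genes respond to the absence of oxygen in each medium, averaged over the strains. In YPD 55 of 56 members fell and 0 rose, where 14.6% of all genes tested fell. The median change of the members was −0.93 on the log2 scale, with a range from −1.32 to −0.27, while the median of all genes was 0.25. In 51 members every anaerobic library lay below every aerobic one, which held for 9.7% of all genes. RPS28B, 1 of the genes for a small protein at the mRNA exit, measured 1155 RPKM at the lowest, 1316 at the median and 1368 at the highest of the 6 aerobic YPD libraries, and 470, 492 and 626 in the 6 anaerobic ones. Its change was −1.32 ± 0.10 (SE, limma adjusted p = 1.1e-06). RPS13, a single gene, went from a median of 5378 RPKM (4238 to 6250) to 2243 (1705 to 2557), a change of −1.30 ± 0.11 (limma adjusted p = 2.4e-06). Neither gene had overlapping libraries, and RPS21A (−1.28), RPS12 (−1.28) and RPS7A (−1.24) came next. The member without a call was RPS30A, with a median of 3384 RPKM (3006 to 4280) in air and 3058 (2102 to 3500) without oxygen, and its partner RPS30B was called.

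In the butanols the anaerobic levels lay further below the aerobic ones than in YPD. In ethanol they lay less far below on the average of PAP and IL01, but not in IL01 itself. All 56 members fell without oxygen in butanol (median −1.46, range −2.21 to −0.70), where 22.9% of all genes fell, and all 56 in isobutanol (median −1.49, range −2.29 to −0.52), where 18.6% did. In ethanol, fitted on PAP and IL01, all 56 fell (median −0.79, range −1.41 to −0.38) beside 29.1% of all genes. Ethanol was at 3% without oxygen and at 4% in air, so that dose and oxygen cannot be told apart there. RPS26B showed the largest fall in each alcohol. In butanol it measured 1283 RPKM at the lowest, 2176 at the median and 2365 at the highest of the aerobic libraries and 237, 427 and 790 of the anaerobic ones, so that the libraries were far from overlapping. The change was −2.21 ± 0.17 (SE, limma adjusted p = 3.7e-13) in butanol, −2.29 ± 0.26 (limma adjusted p = 2e-05) in isobutanol and −1.41 in ethanol. After it came RPS24B (−2.10) and RPS22A (−1.97) in butanol, RPS22A (−2.04) and RPS29A (−1.96), which encodes a small zinc-binding protein, in isobutanol, and RPS27B (−1.10) and RPS29A (−1.07) in ethanol. RPS21A was in the list of 5 in every medium, with −1.76 in butanol, −1.78 in isobutanol and −1.03 in ethanol. The direction of these medians held in every strain: in YPD they were −0.85 in WA, −1.13 in PAP and −0.84 in IL01, and in isobutanol −1.15, −1.29 and −2.0. In ethanol they were −0.53 in PAP and −1.08 in IL01, a smaller fall than in YPD in PAP and a larger one in IL01. The PAP value in YPD includes anaerobic replicate 2, with 55.6% of its reads in genes. The IL01 value in isobutanol averages anaerobic replicates that differed widely, at 3.97% and 9.93% of the RPKM sum. Under quantile normalization, which forces all libraries to 1 distribution, the medians shrank to −0.43 (YPD), −0.70 (butanol), −0.76 (isobutanol) and −0.35 (ethanol), and in isobutanol the count of calls dropped to 33. In YPD the same scaling turned the direction of RPS26A (0.26) and RPS30A (0.48), which were then called higher, and put RPS1B, RPS10A, RPS20 and RPS25A just above 0 without a call. With the RPKM sum fixed per library the medians were −0.61, −1.10, −1.13 and −0.55.

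**Figure D2:**
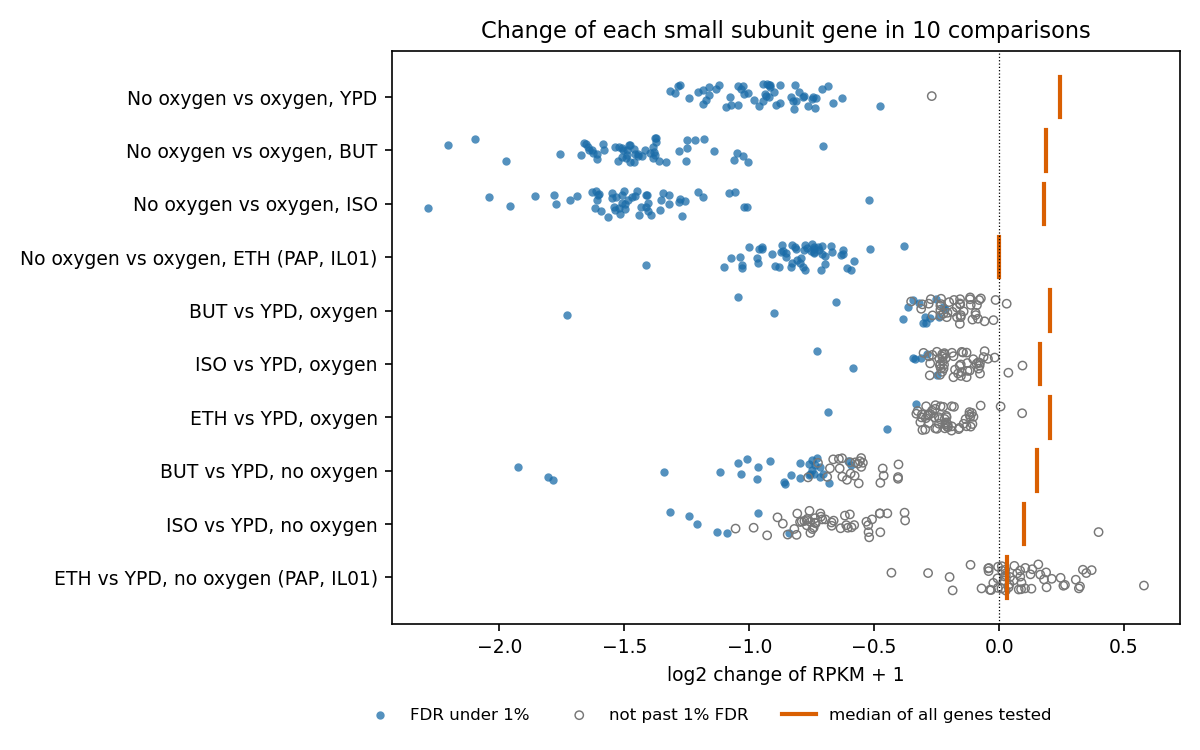
Change of the 56 small subunit genes in each comparison (points are genes; horizontal axis, log2 change of RPKM + 1 from limma; filled points passed 1% FDR; vertical bars are the median of all genes tested). Nearly all of them were lower without oxygen in every medium, with medians of −0.93 (YPD), −1.46 (butanol), −1.49 (isobutanol) and −0.79 (ethanol). Ethanol was at 3% without oxygen and at 4% in air, so that its median also holds a difference in dose. The alcohol effects in air were small for most genes, with a few far below the rest.

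Other lists of the translation apparatus also held genes that fell without oxygen. In YPD, where 14.6% of all genes fell and 26.5% rose, 76 of 81 large subunit genes fell, with a median of −0.91, as did 30 of 52 genes of ribosome biogenesis (median −0.75), 7 of 27 assembly factors of the 40S particle (median −0.44) and 17 of 33 translation factors (median −0.48). Of 54 mitochondrial ribosomal protein genes 8 fell and 1 rose (median −0.21), a share near that of all genes that fell. In butanol 78 of 81 large subunit genes, 51 of 52 biogenesis genes and 25 of 27 assembly factors fell, where 22.9% of all genes did. The regulators of ribosomal protein genes did not move as 1 group, as 5 of 21 rose in YPD, a share below that of all genes, and 1 fell. In ethanol the mitochondrial list also fell, 54 of 54 with a median of −0.95, where 29.1% of all genes fell. Outside both subunits the genes whose levels tracked the member median most closely over the 46 libraries were EMG1 (r = 0.97), a methyltransferase for the rRNA of the small subunit, SSB2 (r = 0.97), a chaperone on the ribosome, CDC33 (r = 0.96), the cap-binding initiation factor, EFB1 (r = 0.96), an elongation factor subunit, and URA5 (r = 0.96), an enzyme of uracil synthesis. The median of r over all genes outside the subunits was −0.19.

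The promoters were read for a form of the Rap1 site, ACCCNNACA on either strand, in the 500 bases before each start codon. It was found in 18 of 56 members (32.1%), in 44.4% of the large subunit genes and in 5.48% of all nuclear protein-coding genes. This is a match of letters and no measure of binding. The sites of RPS2 and RPS24A, genes that fell without oxygen, lie in the following windows of build R64, with the match in capitals.
RPS2 (chrVII:277219-277248, plus strand, 388 bases before the start codon): tttaagctagACCCATACAcccgctctatg
RPS24A (chrV:305977-306006, plus strand, 336 bases before): gggactgtacACCCACACAtttacaagccc

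With oxygen, the alcohols had a small effect on most members and a large one on a few. In butanol 16 of 56 fell and 0 rose, where 2.49% of all genes fell, and the median change was −0.21 against 0.20 for all genes. RPS22B had the largest fall on the average of the strains, and in WA and PAP, while in IL01 RPS14B fell slightly more (−1.29). Its 6 YPD libraries measured 776 RPKM at the lowest, 1013 at the median and 1460 at the highest, and its 6 butanol libraries 180, 280 and 611, without overlap. The change was −1.73 ± 0.06 (SE, limma adjusted p = 2.7e-07), and it was seen in each strain, with −1.86 in WA, −2.08 in PAP and −1.24 in IL01. Its paralog RPS22A, which makes up most of the pair, measured 5820 RPKM at the median in YPD (4559 to 6839) and 5190 in butanol (3367 to 5906), a smaller change of −0.28 (limma adjusted p = 0.0082) with overlapping libraries. RPS22 encodes a protein of the body of the subunit.

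RPS14B and RPS24B behaved likewise in butanol. RPS14B fell from a median of 949 RPKM (844 to 1330) to 531 (356 to 610), a change of −1.05 ± 0.07 (limma adjusted p = 1.9e-05). The Rps14 protein is known to bind the unspliced RNA of RPS14B and to hold its own second copy down. RPS14A was at 5496 RPKM (4670 to 6767) in YPD and 5229 (3908 to 6200) in butanol, again overlapping. RPS24B fell from 1930 RPKM (1337 to 2026) to 1115 (614 to 1182), a change of −0.90 ± 0.05 (limma adjusted p = 7.7e-06), beside RPS24A at 2229 (2021 to 2583) and 1994 (1367 to 2256). RPS9A (−0.65, limma adjusted p = 0.0016) and RPS13 (−0.38, limma adjusted p = 0.0099) completed the list of 5. The 4 members whose butanol and YPD libraries did not overlap were RPS22B, RPS14B, RPS24B and RPS7A (0.752% of all genes were lower in that way). The count of 16 rested on single libraries: leaving out 1 of 10 of the 12 libraries moved it beyond 1.5-fold, down to 4 without PAP in aerobic YPD replicate 1, while RPS22B, RPS14B and RPS24B passed in each of these fits.

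The 4 genes with the largest falls in aerobic butanol all have an intron within the coding sequence. Of the 36 members with a coding intron 13 fell (median −0.22), and of the 20 without 3 fell (median −0.19). The intron of RPS22B is 483 bases long and holds the small nucleolar RNA gene SNR44 on the same strand, over 211 bases. Reads from that RNA would lie outside the coding exons, and their part in the counts was not tested. The start of the intron is shown for the members of the 3 pairs with the largest change in balance in butanol, without RPS22A, which has no coding intron, from build R64; lower case before the capitals is coding exon, the capitals are the first 6 bases of the intron at its 5′ splice site, and lower case after them is intron.
RPS22B (chrXII:856563-856592, plus strand): tgcaaaagcatgGTATGTtccaactatttt
RPS14A (chrIII:178196-178220, minus strand): atgtctaGTATGTttaatcacatag
RPS14B (chrX:73787-73814, plus strand): atggctaacgGTACGTgaaaggggtgat
RPS24A (chrV:306323-306343, plus strand): atgGTATGTtaaaaagtgctc
RPS24B (chrIX:232349-232369, minus strand): atgGTATGTcgaacttgtact
RPS14B began with GTACGT where RPS14A, RPS22B and both RPS24 copies had GTATGT. Over all 36 members with an intron, 24 began with GTATGT (66.7%), against 73.9% of 245 introns of other genes.

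Isobutanol and ethanol in air changed fewer members. In isobutanol 7 of 56 fell, where 2.41% of all genes fell, with RPS14B first (−0.73, limma adjusted p = 4.2e-05), from 949 RPKM at the median in YPD to 674 (483 to 729), and RPS22B second (−0.58, limma adjusted p = 0.00012), at 766 RPKM (442 to 1015). RPS24B and RPS0B were at −0.34 and RPS12 at −0.29. In ethanol 3 fell, where 1.42% of all genes fell: RPS14B (−0.68, limma adjusted p = 0.00038), at 641 RPKM (535 to 735), RPS28A (−0.45, limma adjusted p = 0.0045) and RPS16B (−0.33, limma adjusted p = 0.0086). RPS14B and RPS16B were the members that fell in all 3 alcohols. The libraries of RPS14B did not overlap those in YPD in any of them, and RPS16B changed less, by −0.22 in butanol, −0.25 in isobutanol and −0.33 in ethanol. These comparisons use the same 6 YPD libraries. The counts ran from 2 to 13 in isobutanol and from 1 to 11 in ethanol when 1 library was left out, lowest without PAP in aerobic YPD replicate 1 in both cases.

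**Figure D3:**
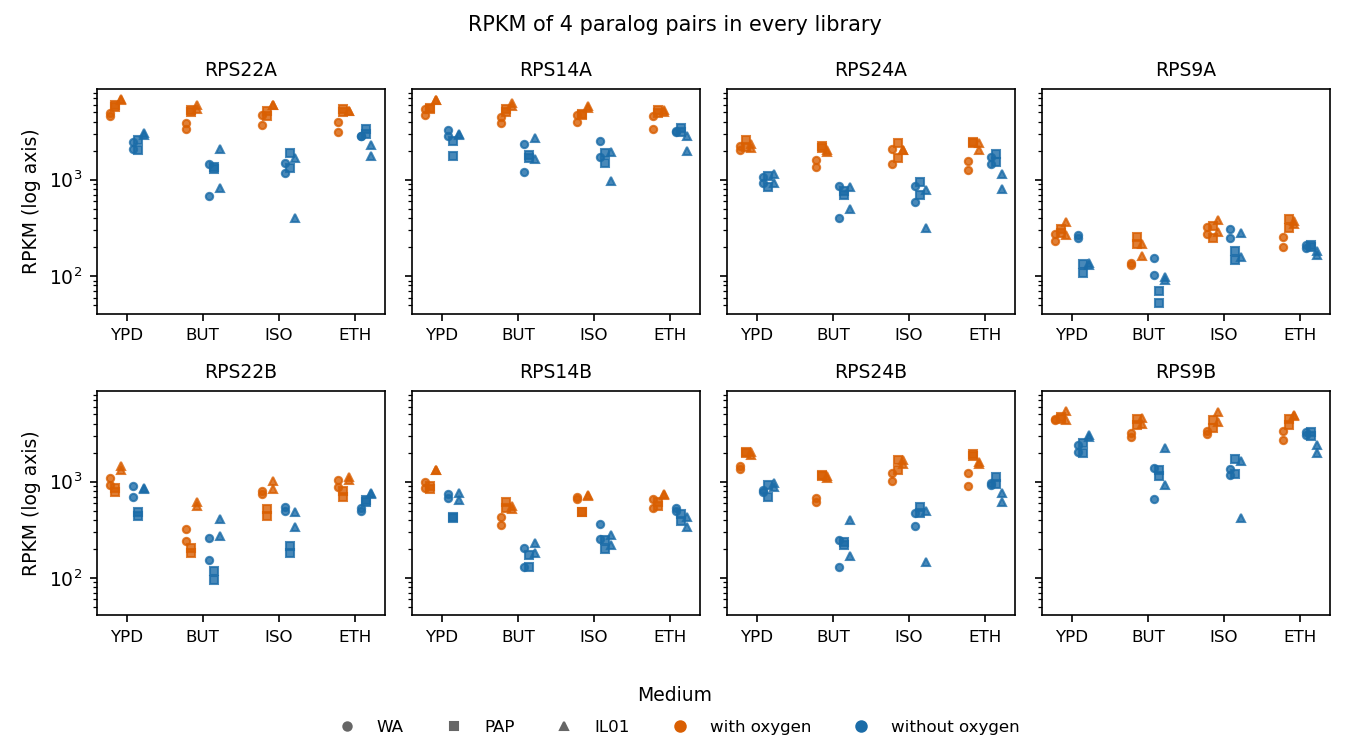
RPKM (log axis) of both copies of RPS22, RPS14, RPS24 and RPS9 in each library, by medium and oxygen (points are single libraries, shapes are strains, and the libraries labelled WA in anaerobic ethanol are included). RPS22B drops from 776 to 1460 RPKM in aerobic YPD to 180 to 611 in aerobic butanol, while RPS22A stays between 3367 and 6839.

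Without oxygen the butanols lowered the genes further, from a level that was already lower. In butanol 30 of 56 fell and 0 rose, where 7.23% of all genes fell, with a median of −0.71 against 0.15 for all genes. RPS24B went from 848 RPKM (685 to 958) in anaerobic YPD to 228 (129 to 400), a change of −1.92 ± 0.19 (SE, limma adjusted p = 6.9e-11). RPS22B went from 763 (442 to 899) to 208 (95.3 to 412), a change of −1.80 (limma adjusted p = 2e-11), and RPS14B from 659 (415 to 757) to 178 (129 to 232), a change of −1.79 (limma adjusted p = 2.5e-11). The libraries of these 3 genes did not overlap, and the same 3 genes led the list in air. RPS26B (−1.34) and RPS29A (−1.12) followed. The count was 9 without WA in anaerobic butanol replicate 1 and 49 without IL01 in anaerobic butanol replicate 2, and 6 other libraries, each left out, brought it to between 14 and 16. It was 14 without the IL01 library with the low share (replicate 1), and 17 without the libraries that had under 68% of their reads in genes.

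In isobutanol without oxygen 7 of 56 fell, where 2.65% of all genes fell. On the average of the strains the median of the members, −0.74, was as low as in butanol. By strain the medians were −0.57 in WA, −0.34 in PAP and −1.19 in IL01. In butanol they were −0.93, −0.46 and −0.70, so that isobutanol showed the larger fall only in IL01. There the member median changed by −2.09 and −0.62 in the 2 isobutanol replicates. RPS26B (−1.32, limma adjusted p = 0.0061) fell from 1051 RPKM (815 to 1301) to 498 (112 to 723), RPS29A by 1.24, RPS14B by 1.21, RPS24B by 1.13 and RPS9B by 1.09 on the log2 scale. At an unadjusted p below 0.05 there were 51 lower members and 1 higher. The count rested on IL01: without its anaerobic isobutanol replicate 2 it was 54, and without replicate 1 it was 21, while it was 2 to 4 without 1 of 7 other libraries. RPS9A went the other way from the rest, at 135 RPKM (107 to 268) in anaerobic YPD and 215 (147 to 306) in isobutanol, a difference of 0.40 that did not pass.

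The test of the interaction, that is of whether butanol acted differently with and without oxygen, called 2 of 56 members lower. This is a share near that of all genes, of which 2.61% were called lower, so the count does not set the members apart. RPS24B changed by −0.90 in air and −1.92 without oxygen, a difference of −1.02 ± 0.24 (SE, limma adjusted p = 0.0075), and RPS14B by −1.05 and −1.79, a difference of −0.74 ± 0.18 (limma adjusted p = 0.0096). A further group of members, 28 in all with these, had an unadjusted p below 0.05 in that direction. The calls were fragile, since the count went from 0 to 8 when 1 library was left out (8 without IL01 in anaerobic butanol replicate 2, 6 without PAP in anaerobic YPD replicate 2, and 0 or 1 without 1 of 19 other libraries) and was 0 without a filter on low genes. For isobutanol 0 members were called by limma (3.8% of all genes were called) and 26 had an unadjusted p below 0.05, with a count of 31 without IL01 in anaerobic isobutanol replicate 2.

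In ethanol without oxygen the strains went different ways, and no member was called on their average. Over PAP and IL01 limma called 0 of 56 members (4.16% of all genes were called), with 8 higher and 1 lower at an unadjusted p below 0.05 and a median of 0.06. The count was 11 without PAP in anaerobic YPD replicate 1 and 6 without replicate 2. In PAP all 56 members were higher in ethanol than in YPD (median 0.47 against 0.11 for all genes). Against PAP in YPD replicate 1 alone 51 were higher, with a median of 0.27. In IL01 53 of 56 were lower (median −0.34 against −0.03 for all genes). As a share of the RPKM sum, the members went in PAP from 13.6% and 13.9% in YPD to 15.6% and 15.4% in ethanol. In IL01 they went from 13.8% and 14.0% to 11.9% and 10.5%. The libraries labelled WA had 49 of 56 higher than WA in YPD (median 0.26; 31 higher than IL01 in YPD, median 0.05), with 0 called by limma (3 higher and 1 lower at an unadjusted p below 0.05; 8.4% of all genes were called). RPS26A measured 3569 and 2978 RPKM in the anaerobic YPD libraries of PAP and 4445 and 4423 in ethanol. In IL01 it measured 4432 and 4152 in YPD and 3656 and 2932 in ethanol, so that the order of the media was turned round. For RPS31 the values were 4601 and 3663 in YPD against 5688 and 5261 in ethanol in PAP, and 4682 and 4067 against 4404 and 3123 in IL01, where the media overlapped.

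A test of the PAP response minus that of IL01, added after these values were seen, called 0 of 56 members (0.302% of all genes were called). At an unadjusted p below 0.05 there were 55 higher, without the share of all genes beside it. As the members moved together, these are not 55 independent results. The median difference was 0.82 against 0.15 for all genes (0.30 against 0.02 under quantile normalization). RPS26A gave 0.83 ± 0.25 (SE, limma adjusted p = 0.19) and RPS31 0.65 ± 0.25 (limma adjusted p = 0.31). PAP in anaerobic YPD replicate 2 had 55.6% of its reads in genes, the lowest of all libraries. Without it the test called 17 members, and without replicate 1 of the same group it called 51. Each response rests on 2 libraries per medium.

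Strain differences were clearest in air. Against the mean of the 3 strains over all 4 media, 50 of 56 members were lower in WA (median −0.24), where 21.7% of all genes were lower, and 43 of 56 were higher in IL01 (median 0.17), where 11.9% were higher. PAP had 9 higher (13.2% of all genes) and 2 lower (14.1%). RPS26B was −0.50 ± 0.05 (SE, limma adjusted p = 9.7e-07) in WA and 0.36 ± 0.05 in IL01. RPS21B (−0.48), RPS23B (−0.43), whose protein sits at the decoding centre, RPS24B (−0.41) and RPS29A (−0.41) were next in WA. RPS22B separated the other 2 strains: in aerobic YPD it measured 776 and 857 RPKM in PAP and 1303 and 1460 in IL01, with WA between them at 929 and 1097. Over the 4 media it was −0.48 ± 0.03 (limma adjusted p = 8.4e-09) in PAP and 0.48 ± 0.03 (limma adjusted p = 8.1e-09) in IL01. PAP was higher in RPS24B (0.24), RPS6B (0.21), RPS21B (0.21), RPS19A (0.19) and RPS24A (0.18) and lower in RPS11A (−0.19), and IL01 was higher in RPS6A (0.39), RPS23B (0.32) and RPS21B (0.27). Mitochondrial ribosomal protein genes were also lower in WA, 51 of 54 with a median of −0.59. Under quantile normalization 26 members were lower and 2 higher in WA (RPS11A and RPS11B), and in IL01 20 were higher and 1, RPS4A, lower. The 11 calls of PAP became 22 without WA in aerobic ethanol replicate 1 and 6 or 7 without 1 of 13 other libraries, and the 43 of IL01 became 27 without IL01 in aerobic ethanol replicate 1.

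**Figure D4:**
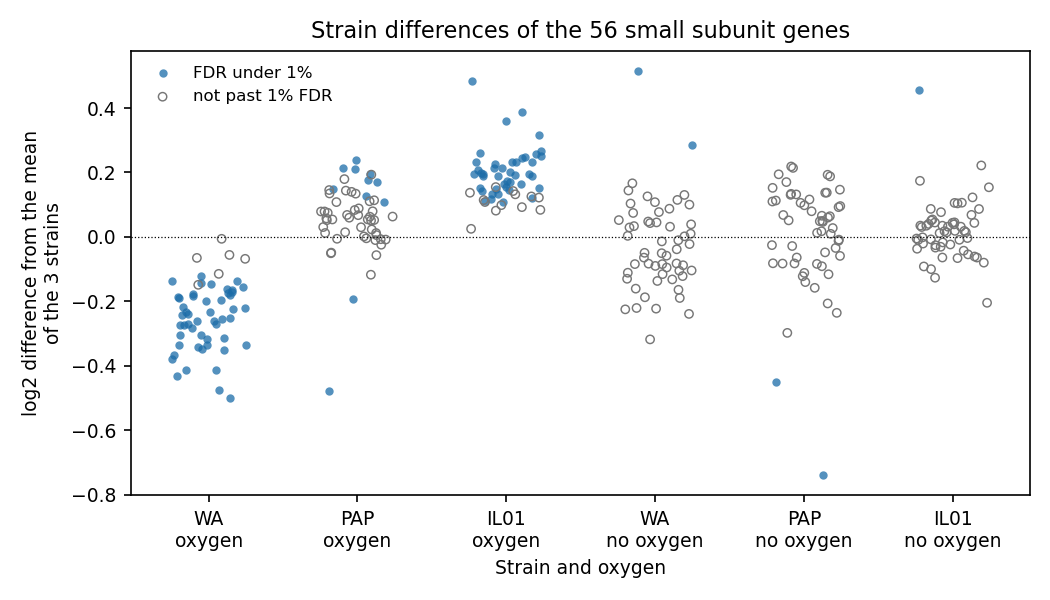
Difference of each small subunit gene from the mean of the 3 strains (vertical axis, log2; points are genes, filled where limma passed 1% FDR), in air and without oxygen. WA lies lower in air, with 50 of 56 called, and IL01 higher, with 43 called, while 2, 2 and 1 genes were called in WA, PAP and IL01 without oxygen.

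Without oxygen, over YPD, butanol and isobutanol, few members were called between the strains. The SEs were larger than in air, for RPS26B 0.18 against 0.05, so that fewer calls do not show that the strains were more alike. In WA 2 were higher (9.11% of all genes), RPS9A (0.52, limma adjusted p = 0.00027) and RPS22B (0.29, limma adjusted p = 0.0094), in PAP 2 were lower (9.27%), RPS22B (−0.74, limma adjusted p = 2.8e-06) and RPS9A (−0.45, limma adjusted p = 0.0014), and in IL01 1 was higher (17.0%), RPS22B (0.45, limma adjusted p = 0.00041). RPS22B was therefore lower in PAP and higher in IL01 with and without oxygen. Its call in WA was lost without 1 of 13 libraries, and that of RPS9A in PAP without PAP in anaerobic butanol replicate 2. RPS9A, whose protein lines the channel where the mRNA enters, showed its own pattern in WA. There it measured 271 and 230 RPKM in aerobic and 268 and 250 in anaerobic YPD. In PAP it went from 283 and 308 to 132 and 107, and in IL01 from 269 and 368 to 130 and 138. In YPD the loss of oxygen changed it by 0.05 on the log2 scale in WA, by −1.30 in PAP and by −1.22 in IL01, and it was the only member that was not lower without oxygen in WA in that medium.

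The last comparison asked whether the balance between the copies of a pair changes with oxygen. For each pair log2(A/B) was compared between 22 aerobic and 22 anaerobic libraries, with a 2-sided permutation of the oxygen labels within each of 11 combinations of strain and medium. With p-values adjusted over the 59 pairs of both subunits and the threshold at 1%, the balance changed in 19 of 24 pairs, 12 toward copy A and 7 toward copy B, where 84.7% of all 59 pairs changed. The changes were small, with a median size of 0.20 on the log2 scale and a largest of 0.91. In the large subunit 31 of 35 pairs changed.

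RPS26 and RPS22 had the largest changes, in opposite directions. In RPS26 copy A made up 70.6% ± 1.7 (SD, n = 22) of the pair in air and 81.5% ± 3.8 (SD, n = 22) without oxygen, a log2 change of 0.91 ± 0.34 (SD over 11 combinations, up in 11 of 11; adjusted permutation p = 2.4e-05, from the smallest p of 1e-05 that the permutations can give). It was the 1 small subunit pair whose libraries did not overlap over these 44. With WA in aerobic ethanol added, whose replicate 2 was at a log2(A/B) of 1.72, it overlapped the anaerobic YPD libraries of PAP (1.62 in replicate 1) and IL01 (1.67 in replicate 2). In RPS22 copy A fell from 87.8% ± 4.5 to 79.4% ± 8.7 (SD, n = 22 each), a change of −0.91 (down in 11 of 11), and the libraries overlapped. In RPS30 copy A rose from 51.4% to 60.8% (up in 11 of 11), in RPS21 it fell from 51.0% to 43.7% and in RPS7 from 78.6% to 73.8% (down in 11 of 11 each). RPS22, RPS30, RPS21 and RPS7 had the same adjusted permutation p as RPS26. The pairs with the smallest changes were RPS25 (−0.02, adjusted permutation p = 0.61), RPS6 (0.03, p = 0.31) and RPS28 (0.06, p = 0.28). The mean of RPS28 hid a difference between strains, which was not tested: its ratio rose in WA by 0.53 in YPD, 0.49 in butanol and 0.25 in isobutanol, and in PAP and IL01 it lay between −0.19 and 0.02.

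**Figure D5:**
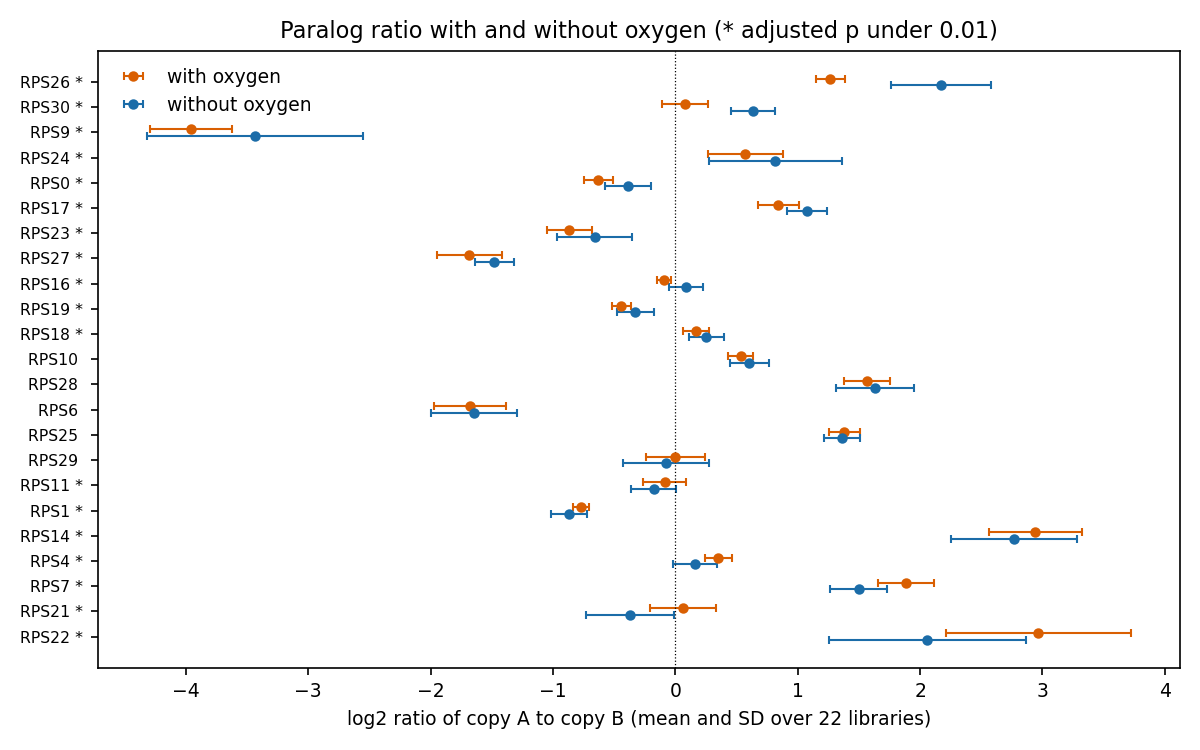
Log2 ratio of copy A to copy B (horizontal axis) of 23 small subunit pairs with and without oxygen (points are means and bars SDs over 22 libraries each; asterisks mark pairs whose adjusted permutation p was under 0.01). RPS26 moves toward copy A by 0.91 and RPS22 toward copy B by the same amount, and RPS9 and RPS14 lie farthest from equal levels.

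The most unequal pairs over the 46 libraries were RPS9, with a mean log2(A/B) of −3.70, RPS14 (2.85), RPS22 (2.49), RPS26 (1.72), RPS7 (1.71) and RPS6 (−1.67). RPS9 moved toward its minor copy A by 0.52 on average, from 6.15% to 9.64% of the pair (adjusted permutation p = 0.004), with 7 combinations up and 4 down. In YPD WA moved by 1.07, PAP by −0.27 and IL01 by −0.51, over all combinations it ran from −0.51 to 1.86, and without WA the mean change was 0.23 and no longer passed. The 3 largest shifts of balance in aerobic butanol were toward copy A, the more abundant copy of these pairs. In aerobic butanol log2(A/B) rose by 1.45 in RPS22, 0.88 in RPS14 and 0.63 in RPS24, each in 3 of 3 strains, and without oxygen by 0.76, 1.23 and 1.33, again in 3 of 3. For RPS22 this was opposite to its change without oxygen. RPS26 also moved toward copy A in butanol, by 0.10 in air and 0.68 without oxygen, in 3 of 3 strains each. RPS30 rose by 0.31 in aerobic butanol in 3 of 3 strains and changed by −0.15 without oxygen, where it rose in 1 of 3. RPS9 moved away from copy A in aerobic butanol, by −0.36 in 3 of 3 strains. In anaerobic isobutanol the RPS9 ratio rose by 1.49, in 3 of 3 strains. With 3 strains these alcohol changes of the ratio are given as a description, without a test.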

How the data were processed

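Per the study's methods, RNA was depleted of rRNA, made into stranded libraries and read as single-end reads of 100 bases. The authors trimmed the reads (Trimmomatic), aligned them to S288c build R64 with BWA, used HTSeq to count reads in each gene and deposited the counts as log2 RPKM. Strand and multi-mapping settings of the counting are not given in the sources used here, so reads that match both copies of a pair may have been lost or shared. Their own tests paired the replicates. Here a listed 0 was taken as no reads. Whole reads were recovered from RPKM and gene length within 0.01 read for 6012 of 6713 genes (89.56%) and for all 56 members, and were used for depth only.

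Genes with a mean of at least 1 RPKM over the libraries of a comparison were fitted as log2(RPKM + 1) with limma 3.58.1 in R 4.3.3, with group means, a trended prior variance and the replicate number within each oxygen state as a block, and Benjamini-Hochberg adjustment over all genes. The block follows the methods, by which duplicates were collected on different days. The replicate differences of group pairs correlated with a median r of 0.10 in air (−0.47 to 0.72) and 0.09 without oxygen (−0.46 to 0.80). Fold changes on this scale understate the change of low genes. Pair ratios were tested with 100000 permutations. The fits were tested on simulated data. Identity, motifs and introns came from RefSeq's R64 genome, with Biopython 1.88.

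Members and comparison lists were chosen with earlier results of these data known. Named are, per comparison, the up to 5 largest called rises and falls (if none, the 2 highest members), the 5 highest and 5 lowest levels, the 6 most unequal pairs, and the 6 largest and 3 smallest ratio changes. Some of these are not reported here, and the next by the rule was then named per comparison. Other members named were chosen after their values were seen. Alternatives were no block, quantile normalization, a fixed RPKM sum, a pseudocount of 0.1, no filter, and leaving out libraries, strains or media.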

Additional observations from a re-analysis of the deposited data

Results flagged for a closer look

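The interaction test of butanol and oxygen called 2 of 56 members lower, a share near that of all genes, of which 2.61% were called lower. The count of members ran from 0 to 8 when 1 library was left out. RPS24B fell by 1.02 more on the log2 scale without oxygen than with it, an interaction of −1.02, and RPS14B gave an interaction of −0.74. Both were lower in butanol in all 3 strains under either oxygen state. With the low IL01 libraries left out (replicate 1 in anaerobic butanol and in anaerobic isobutanol) neither passed.

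In ethanol without oxygen the member median was higher than in YPD in PAP and lower in IL01, in opposite directions. The log2 change of the member median against the mean of YPD was 0.46 and 0.50 in the 2 PAP libraries, −0.36 and −0.49 in the 2 IL01 libraries, and 0.18 and 0.22 in those labelled WA. The difference of the means was 0.91 between PAP and IL01 and 0.63 between the libraries labelled WA and IL01. Both depend on the baseline, and the following baselines were chosen after seeing the data. Without PAP in anaerobic YPD replicate 2, which had 55.6% of its reads in genes, the PAP changes were 0.23 and 0.27 and the difference from IL01 was 0.68. Against IL01 in YPD the libraries labelled WA, which went against their label, changed by −0.03 and 0.01, so that no opposite direction was seen, and their difference from IL01 was 0.41. These differences of the median were not tested. The gene by gene test of PAP against IL01, given above, called 0 members.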

How the results depend on the processing

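The falls without oxygen kept their counts when single libraries were left out: leaving out 1 library gave 53 to 55 in YPD, 56 in butanol, 55 to 56 in isobutanol and 56 in ethanol, while quantile normalization gave 38 falls and 2 rises in YPD and 51, 33 and 38 falls in butanol, isobutanol and ethanol. The alcohol counts with oxygen and the isobutanol, ethanol and interaction counts without it depended on single libraries and on the scaling. The cause of these shifts was not tested, and depth was not tested against them (the lowest member had 317 reads). Of 83 named members and comparisons 59 kept their direction and side of the threshold in every alternative.

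Without the replicate block the count was 3 for isobutanol and 6 for ethanol in air, 1 for ethanol without oxygen (PAP and IL01), 1 for WA without oxygen and 7 for PAP in air. Omitting the block changed no other count by over 1.5 times. Quantile normalization gave 4 for butanol, 2 for isobutanol and 1 for ethanol in air, 1 for ethanol without oxygen, 28 for WA in air and 4 without oxygen, 21 for IL01 in air, and 7 and 2 for the interactions of butanol and isobutanol. The fixed RPKM sum gave 10 for butanol and 8 for ethanol in air, 47 for butanol, 16 for isobutanol and 2 for ethanol without oxygen, 1 for the libraries labelled WA in ethanol, 18 for PAP in air, and 7 and 1 for the interactions. No filter gave 14 for butanol without oxygen and 0 for its interaction, which was 1 with a pseudocount of 0.1. Adding the libraries labelled WA to ethanol without oxygen gave 5.

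With 1 library left out, the counts ran from 4 to 23 (butanol), 2 to 13 (isobutanol) and 1 to 11 (ethanol) in air, from 9 to 49, 2 to 54 and 0 to 11 without oxygen, and stayed at 0 for the libraries labelled WA in ethanol and for their response minus that of the others. They ran from 45 to 53 for WA, 6 to 22 for PAP and 27 to 51 for IL01 in air, from 1 to 2, 1 to 3 and 1 to 1 without oxygen, from 0 to 8 and 0 to 31 for the interactions, and from 0 to 51 for PAP minus IL01 in ethanol.

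Alternatives chosen after seeing the data left out libraries. Without the 2 low IL01 libraries the counts were 14 for butanol and 21 for isobutanol without oxygen, 6 for WA and 2 for IL01 without oxygen, and 0 for the butanol interaction. Without the 3 libraries under 68% of reads in genes they were 17, 2 and 6 for butanol, isobutanol and ethanol without oxygen, 1 for WA, 1 for the butanol interaction, and 17 for PAP minus IL01 in ethanol. The count of changed pair ratios was 12 without the isobutanol libraries, and between 13 and 19 otherwise.

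Quantile normalization turned the sign of 6 members for the loss of oxygen in YPD (2 then called), 1 in butanol, 1 in isobutanol and 2 in ethanol, and in air of 10 in WA (2 called) and 2 in IL01 (1 called), counted where a call was made before or after. Among the members named by the rule the sign turned in RPS31, RPS26A and RPS2, none of them called, in ethanol without oxygen. For PAP and IL01, RPS31 and RPS26A were at −0.185 and −0.164 under quantile normalization and at −0.048 and −0.11 with a fixed sum, and RPS26A was at −0.0035 without the libraries with few reads in genes and between −0.027 and 0.081 with 1 library left out. Single omissions brought RPS2 to between −0.045 and 0.279 in the libraries labelled WA and, for their response minus that of the others, RPS31 to between −0.098 and 0.337 and RPS2 to between −0.177 and 0.235.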
